A study of Mus musculus with 8 samples.

Results

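The 9 genes described here act in the response to interferon or in its induction: the chains of the type I interferon receptor (Ifnar1 and Ifnar2), the chains of the interferon gamma receptor (Ifngr1 and Ifngr2), the kinase Jak1, the transcription factor Stat2 and the interferon regulatory factors Irf1, Irf3 and Irf5. They were chosen by their symbols, with earlier results of these data known. All 12 of their probes among the 55681 probes of the array were kept, 7 genes having 1 probe, Irf1 having 2 and Ifnar1 having 3. RNA came from the lumbar dorsal root ganglia (DRGs) L3-L5, where sensory neurons sit among satellite glia, Schwann cells and resident macrophages. The mice were males of 20 to 24 weeks. One group was the Fabry disease (FD) model, α-Gal A(-/0), which lacks the lysosomal enzyme α-galactosidase A, and the other was wildtype, and the labels give the strain of both as C57BL/6J. Each group had 4 samples, each pooled from 2 mice, and the 8 arrays were those of a single Agilent slide. The groups came from separate inbred colonies, the FD colony being on a C57BL/6 background, so that genotype and colony cannot be told apart.

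Type I interferons bind Ifnar1 with Ifnar2, and interferon gamma binds Ifngr1 with Ifngr2. Jak1, which serves both receptors, works with Tyk2 or Jak2 to phosphorylate STAT proteins. Stat2 acts with Irf9 on the interferon-stimulated response element (ISRE) of antiviral genes, and STAT dimers bind the gamma-activated site (GAS), through which Irf1 is induced. Irf3 and Irf5 act upstream, downstream of nucleic acid sensors and Toll-like receptors, and switch on interferon and cytokine genes.

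In FD DRGs, 1 of 3 Ifnar1 probes and the Irf5 probe were called lower (adjusted p under 0.05 in limma). No probe of the 9 genes was called higher, though 3 of the 11 tested probes had a higher mean. Ifnar1 fell by 0.69 on the log2 scale at probe 3, and Irf5 fell by 0.51. Thus 2 of the 11 tested probes passed an adjusted p under 0.05 in limma, both lower, against 3.07% of all 29432 tested probes in either direction, 1.11% lower and 1.96% higher. The study's thresholds (p at most 0.01, unadjusted, and a fold change of 1.2 or more) were set here on limma p-values. By them 3 passed, all lower, against 6.03% of all probes in either direction and 2.36% lower. Irf1 was the added one, and with Welch's t-test, which the study used, its unadjusted p was 0.0247. The groups did not overlap for 4 probes, all lower, against 13.4% of all probes in either direction and 5.1% lower. The same 4 probes had an unadjusted p under 0.05 in limma, against 17.6% of all probes and 6.98% lower. As the genes were chosen with earlier results known, these counts are a description. The median log2 fold change of the 11 probes was -0.06, beside 0.02 for all tested probes. Probe values are log2 signals after quantile normalization, which compare samples for 1 probe and not 1 gene with another. Every change is FD minus wildtype, and tested probes were well above background on all 8 arrays. In whole ganglia, fewer cells of a type and less RNA per cell cannot be told apart.

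The probes behind these values are shown because the 3 for Ifnar1 gave different results. The arrays carry 60-base probes, read 5′ to 3′ in the sense of the transcript, and their positions are those of the files, on the plus strand of mm9. The first Ifnar1 probe, at chr16:91503764-91505350, spans 1587 bases of genome and so crosses an intron, and it is given whole, while the others are given by their first 30 bases. Probes 2 and 3 lie at chr16:91506635-91506693 and chr16:91510673-91510732. Irf5 is measured at chr6:29486901-29486960 and Irf1 at chr11:53590746-53590805.
Ifnar1 probe 1: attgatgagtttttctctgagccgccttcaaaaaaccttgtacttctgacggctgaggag
Ifnar1 probe 2: cctcactactaccttgtatctcagtctcct
Ifnar1 probe 3: gctctacctcaagagactaagagggtgaac
Irf5: cagagtcggggtaacaagaacatagaagag
Irf1 probe 1: ctgctaaatggtgtttggtcatgtggtgga

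**Figure D1:**
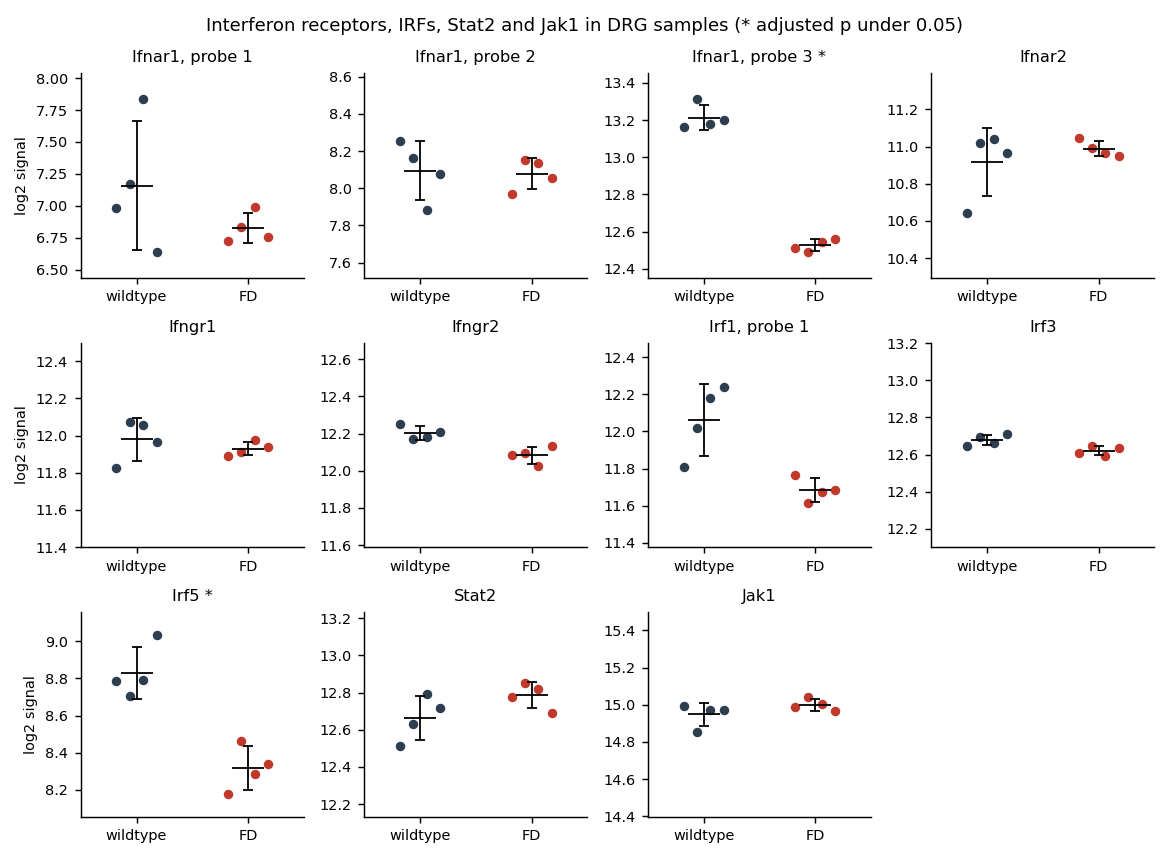
Log2 signal (y axis, a separate range per panel) of the 11 tested probes in the 4 wildtype (dark) and 4 FD (red) samples, with the mean and SD as a bar. An asterisk marks the probes with an adjusted p under 0.05 in limma, Ifnar1 probe 3 and Irf5, whose groups do not overlap.

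Ifnar1, the chain that pairs with Ifnar2, differed between its probes. At probe 3 the log2 signal was 12.51, 12.49, 12.54 and 12.56 in FD samples 1 to 4, and 13.16, 13.31, 13.18 and 13.20 in wildtype samples 1 to 4. All FD samples lay below all wildtype samples, and the gap between the groups was wider than the range within either. The difference was -0.69 (SE 0.055, 95% confidence limits -0.81 and -0.56, 1.61-fold, adjusted p = 0.000388 in limma). It stayed past the threshold under all 17 alternatives, with adjusted p from 7.4e-05 to 0.0154. Within the first row of the slide, with 3 FD samples and 1 wildtype sample, it was -0.64, and within the second, with 1 and 3, it was -0.67.

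The other Ifnar1 probes did not pass. Probe 2 was at 7.97, 8.15, 8.13 and 8.06 in FD samples and at 8.25, 8.16, 7.88 and 8.08 in wildtype samples, so that the groups overlapped. Its difference was -0.02 (SE 0.087, 95% confidence limits -0.21 and 0.18, adjusted p = 0.940), with a sign that turned under 5 alternatives. Probe 1 was at 6.73, 6.83, 6.99 and 6.76 in FD samples and at 6.98, 7.17, 7.84 and 6.64 in wildtype samples. Wildtype sample 3 was high and the groups overlapped, and the difference was -0.33 (SE 0.22, limits -0.83 and 0.17, adjusted p = 0.478). The limits of probes 2 and 3 do not meet. Probe 3 minus probe 2, taken within each array, was 4.34 to 4.55 in FD and 4.91 to 5.29 in wildtype samples, again without overlap. Probe 3 minus probe 1 was 5.55 to 5.80 in FD and 5.34 to 6.56 in wildtype samples, and there the groups overlapped, wildtype sample 3 being the lowest. The files place the probes at bases 1536, 2880 and 6918 of the transcript, and probes 2 and 3 are 4038 bases apart both in the genome and in the transcript, so no intron lies between them. Of the 3 probes, only the one nearest the 3′ end passed the test.

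Ifnar2, the other chain of that receptor, was at 10.95 to 11.04 in FD samples and at 10.64, 11.02, 11.04 and 10.96 in wildtype samples 1 to 4. Only wildtype sample 1 stood apart, low. The difference was 0.07 (SE 0.091, limits -0.13 and 0.28, adjusted p = 0.720) and turned to -0.02 without that sample. For the interferon gamma receptor, Ifngr1, the ligand-binding chain, was at 11.89 to 11.98 in FD and 11.82 to 12.08 in wildtype samples, and differed by -0.05 (limits -0.21 and 0.10, adjusted p = 0.736). Ifngr2, the signalling chain, was at 12.08, 12.09, 12.02 and 12.14 in FD samples and at 12.25, 12.17, 12.18 and 12.21 in wildtype samples. Its groups did not overlap, but the difference of -0.12 (SE 0.052, limits -0.24 and -0.0017) did not pass the adjusted threshold in limma (adjusted p = 0.277).

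Jak1 and Stat2, which act between receptor and nucleus, had means slightly above wildtype. Jak1 was at 14.97 to 15.04 in FD and 14.86 to 14.99 in wildtype samples, with a difference of 0.05 (limits -0.07 and 0.17, adjusted p = 0.658). Stat2 was at 12.69 to 12.85 in FD and 12.51 to 12.79 in wildtype samples, with a difference of 0.12 (limits -0.05 and 0.29, adjusted p = 0.430). For both the groups overlapped.

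**Figure D2:**
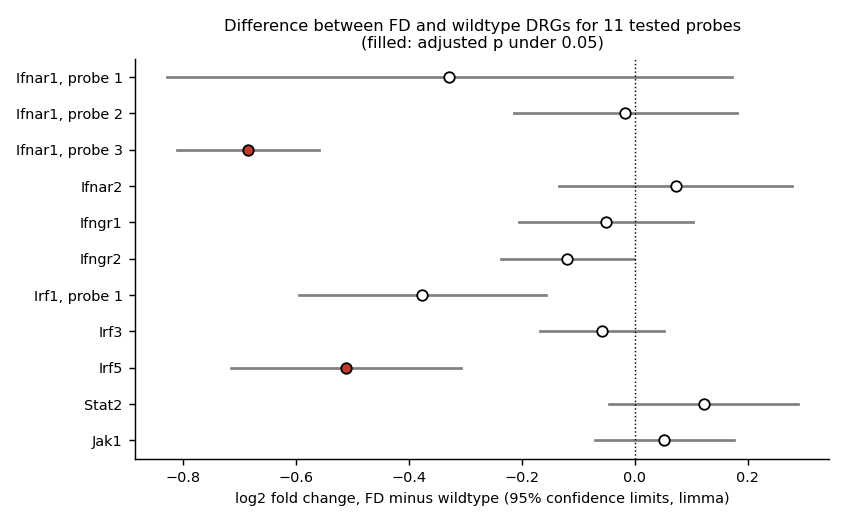
Log2 fold change, FD minus wildtype (x axis), with 95% confidence limits from limma for the 11 tested probes, in order of receptor, factor and kinase genes. The filled points, Ifnar1 probe 3 at -0.69 and Irf5 at -0.51, passed an adjusted p under 0.05, and the limits of Irf1 probe 1 and Ifngr2 also lie below 0.

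Among the interferon regulatory factors, Irf5 was lower. Its log2 signal was 8.18, 8.47, 8.28 and 8.34 in FD samples 1 to 4 and 8.79, 8.70, 8.79 and 9.03 in wildtype samples 1 to 4. The highest FD sample lay below the lowest wildtype sample. The difference was -0.51 (SE 0.090, limits -0.72 and -0.31, 1.43-fold, adjusted p = 0.0208 in limma), and it was -0.48 and -0.50 within the rows of the slide. Its call was past the threshold in 9 of 17 alternatives. It was lost without FD sample 1 (adjusted p = 0.0664), FD sample 3 (0.0647), FD sample 4 (0.0595) or wildtype sample 3 (0.0514), while the difference itself ran from -0.56 to -0.39 over the alternatives. The study discusses Irf5 from these samples, so its direction here is not independent evidence.

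Irf1, a factor induced by interferon that acts on MHC and antiviral genes, was at 11.77, 11.61, 11.67 and 11.68 in FD samples and at 11.81, 12.02, 12.18 and 12.24 in wildtype samples. The groups did not overlap, though wildtype sample 1 lay only just above FD sample 1. The difference of -0.38 (SE 0.096, limits -0.60 and -0.16, 1.30-fold) had an unadjusted p of 0.00376 and an adjusted p of 0.0789 in limma. It passed without wildtype sample 1 (adjusted p = 0.0166) and with array weights (0.00688), and within the rows of the slide it was -0.12, where that sample is the only wildtype one, and -0.46. The second Irf1 probe, at chr11:53591817-53591876, was well above background on 0 of 8 arrays and was not tested. Irf3, which is held in the cytoplasm until phosphorylated, was at 12.59 to 12.65 in FD and 12.65 to 12.71 in wildtype samples, with a difference of -0.06 (limits -0.17 and 0.05, adjusted p = 0.569).

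Of the other genes of the pathway, 61 were on the array and 50 were tested, each by its brightest tested probe. The count called lower was 2, Usp18 and Il10rb, and 1, Ifnlr1, was called higher. Of all 21063 genes, 3.12% were called in either direction, 1.1% lower and 2.02% higher. The median log2 fold change of the 50 pathway genes was -0.05, beside 0.02 over all genes. Usp18, which binds Ifnar2 and dampens its signal and is itself induced by interferon, was at 7.80, 7.87, 7.59 and 7.88 in FD samples and at 8.57, 8.61, 9.30 and 8.95 in wildtype samples. The groups did not overlap, and Usp18 fell by 1.07 on the log2 scale (SE 0.16, adjusted p = 0.00922). The study lists Usp18 as lower from these samples, so its direction here is not independent evidence. Ifnlr1, the specific chain of the interferon lambda receptor, was at 7.87, 8.19, 7.89 and 7.89 in FD samples and at 7.33 to 7.40 in wildtype samples, a rise of 0.58 (SE 0.080, adjusted p = 0.00680). Its partner chain Il10rb, shared with the interleukin 10 receptor, was at 10.58 to 10.77 in FD samples and at 10.92 or above in all wildtype samples, a fall of 0.30 that passed in limma (adjusted p = 0.0336) but in only 6 of 17 alternatives. Without FD sample 1, 3 or 4 or wildtype sample 2, 3 or 4, its adjusted p was 0.0545 to 0.103. Of the 3 genes, Usp18 and Ifnlr1 each passed in 15 of 17 alternatives and not with the methods' t-test or the replicate block.

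The remaining pathway lists held no called gene in limma or with the methods' t-test. Of 8 other IRF genes tested, 7 had lower means, led by Irf7, an amplifier of type I interferon production, at -0.78 (SE 0.18, adjusted p = 0.0573) and Irf8, a factor of the macrophage lineage, at -0.36 (adjusted p = 0.0675). Both had groups that did not overlap, and each passed under some alternatives, 4 for Irf7 and 3 for Irf8. Among 5 other STAT genes tested, Stat5a had a difference of 0.21 (adjusted p = 0.142) and Stat5b of 0.10 (adjusted p = 0.405). Among 12 sensors and adaptors the smallest p-values were those of Ifih1, a sensor of double-stranded RNA, at -0.37 (adjusted p = 0.0533), and Traf3 at -0.22 (adjusted p = 0.171). Of 14 interferon genes 8 were tested and 6, among them Ifnb1 and Ifng, were not well above background on all arrays. Ifna12 differed by 0.20 (adjusted p = 0.266) and Ifnk by -0.35 (adjusted p = 0.314). Both probes were dim, and with normexp background correction the differences were 0.08 for Ifna12 and -0.04 for Ifnk. The Ifna probes read near-identical copies, so that their assignment to 1 gene is uncertain.

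**Figure D3:**
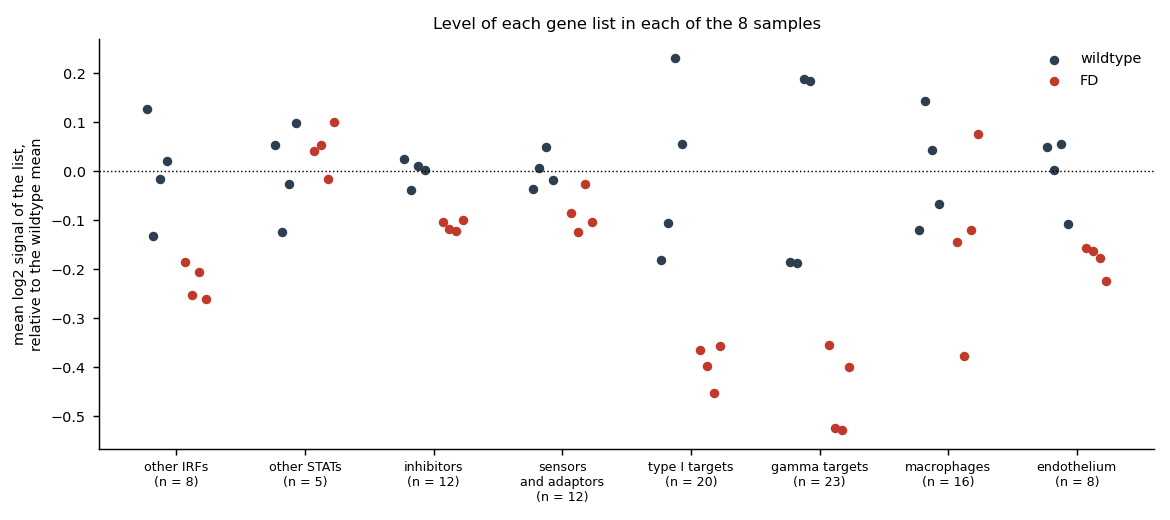
Mean log2 signal of the tested genes of each list, relative to the wildtype mean (y axis), in each wildtype (dark) and FD (red) sample. By this mean, the 4 FD samples lie below all wildtype samples for both target lists, at -0.45 to -0.36 and -0.53 to -0.35. They also lie below all wildtype samples for other IRFs, inhibitors and endothelial markers. For other STATs, sensors and adaptors, and macrophage markers the groups overlap. By summed linear signal the groups overlap for type I targets (highest FD 85708, lowest wildtype 85574), other IRFs and inhibitors, and stay apart for sensors and adaptors. Of 12 inhibitors tested, 7 had lower and 5 higher means, with a median log2 fold change of -0.02, and Usp18 was lowest at -1.07.

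Genes that interferon receptors and their factors are known to induce were lower as far as they were called. The target lists were written with earlier results of these data known. The study itself discusses Oasl2, Psmb8 and MHC class II genes from these samples. The counts below are therefore a description and not independent evidence. Of 20 type I interferon targets, 5 were called lower and 0 higher, beside 1.1% of all genes called lower. A lower mean was found for 19 of the 20, beside 44.3% of all genes. The median log2 fold change of the 20 was -0.36. By summed linear signal the groups overlapped, at 83844 to 85708 in FD and 85574 to 100643 in wildtype samples. An unadjusted p under 0.05 was found for 15 lower genes (7.11% of all genes), and the groups did not overlap for 11 lower genes (5.12%). The called genes were Isg15, a ubiquitin-like modifier, at -0.76 (SE 0.11, adjusted p = 0.00732), Oasl2 at -0.53 (adjusted p = 0.00845), Oas2 at -0.74 (adjusted p = 0.0294), Xaf1 at -0.34 (adjusted p = 0.0455) and Ifit1 at -0.54 (adjusted p = 0.0462). Isg15 was at 10.79, 10.71, 10.56 and 10.82 in FD samples and at 11.52, 11.19, 11.66 and 11.56 in wildtype samples, without overlap. Of these 5 genes, 2 (Isg15 and Oasl2) passed under 16 of 17 alternatives. The number of called genes was 2 without any 1 of the 4 FD samples or without wildtype sample 4.

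Of 23 interferon gamma targets tested, 3 were called lower and 0 higher, beside 1.1% of all genes called lower. A lower mean was found for 22 of the 23, beside 44.3% of all genes, and the median of the 23 was -0.41. The called genes present or prepare antigen: the MHC class II chains H2-Aa at -0.48 (adjusted p = 0.0285) and H2-Eb1 at -0.36 (adjusted p = 0.0482), and the immunoproteasome subunit Psmb8 at -0.44 (adjusted p = 0.0485). An unadjusted p under 0.05 was found for 19 lower genes (7.11% of all genes). The summed linear signal of the list was 77392 to 83723 in FD and 90886 to 103287 in wildtype samples, without overlap. The methods' t-test called 0 genes of either target list. In limma, none of the gamma targets was called without FD sample 1, 2, 3 or 4 or without wildtype sample 3, 1 was called without wildtype sample 4, and 5 without wildtype sample 1. Within wildtype, sample 1 and sample 2 were lowest in both target lists, at -0.18 and -0.11 for type I targets and at -0.18 and -0.19 for gamma targets, and they also had the lowest Irf1 signals of the group. Wildtype samples 3 and 4 were at 0.23 and 0.06 for type I targets and at 0.19 and 0.18 for gamma targets.

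Markers of other cells were compared beside these values, and their part in the results was not tested. Each of the 15 neuron markers had a probe well above background on all arrays and so was tested. The same held for all 8 neutrophil markers, so passing this filter does not check the DRG identity of the samples. Of the neuron markers, Snap25 was lower by 0.47 on the log2 scale and Tac1 higher by 0.34. Macrophages, which express Irf5 and Irf8, had 16 of 17 markers tested and 0 called (2 lower and 1 higher at an unadjusted p under 0.05, and 0 called with the methods' t-test), 14 with lower means and a median of -0.11. Their summed linear signal was 38365 to 42949 in FD and 38552 to 44408 in wildtype samples. Cd68 was at 0.51 (adjusted p = 0.0573) and Laptm5 at -0.61 (adjusted p = 0.0870), and the marker Cd163 was not above background on all arrays. T cell markers were tested for 5 of 8 genes, with a summed signal of 2886 to 3567 in FD and 2920 to 3430 in wildtype samples, and the T cell markers Cd3d, Cd3g and Cd8a and the B cell marker Ms4a1 were too dim to be tested. Endothelial markers summed to 10845 to 11328 in FD and 12485 to 13691 in wildtype samples, without overlap. Schwann cell markers summed to 114718 to 124328 and 124926 to 139156, also without overlap. By mean log2 signal relative to the wildtype mean, the endothelial groups stayed apart. The Schwann cell groups overlapped by that measure (FD -0.25 to -0.07, wildtype -0.18 to 0.11). Limma called 0 of 8 endothelial and 0 of 9 Schwann cell markers, and the methods' t-test called 0. At an unadjusted p under 0.05 in limma, 4 and 3 were lower, beside 7.11% of all genes. Satellite glia and fibroblast markers had 0 of 8 and 0 of 7 called by either test, with 1 lower in each at an unadjusted p under 0.05, and medians of 0.03 and -0.08. Lower means were also found for 7 of 8 endothelial, 9 of 9 Schwann cell and 7 of 7 fibroblast markers, beside 44.3% of all genes. For satellite glia 4 of 8 and for neurons 10 of 15 markers had lower means. Lower means were thus not particular to the interferon targets, though the sizes differed. The median log2 fold change was -0.21 for endothelial and -0.14 for Schwann cell markers, beside -0.36 for type I and -0.41 for gamma targets. Neutrophil markers, with 0 of 8 called and 0 at an unadjusted p under 0.05, varied widely within wildtype, from 11876 to 104761.

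**Figure D4:**
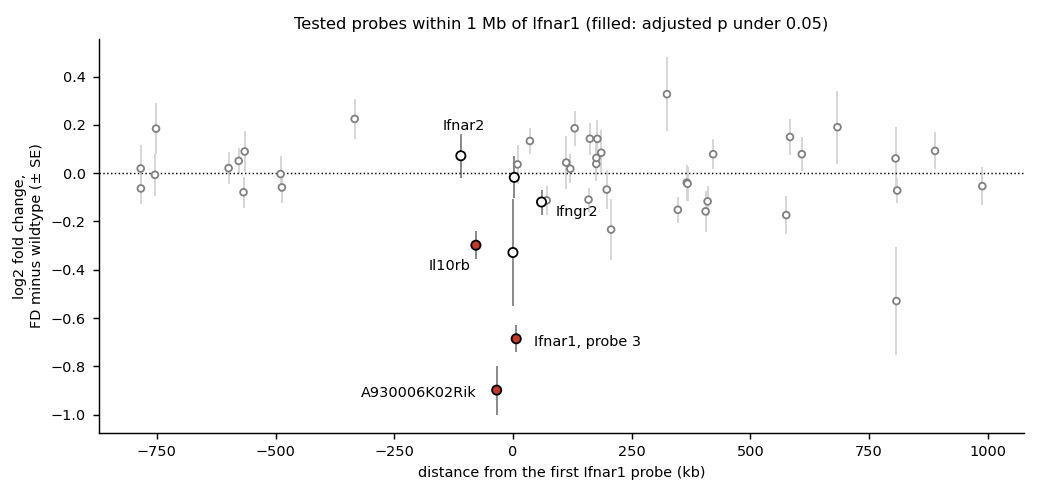
Log2 fold change, FD minus wildtype, with its SE (y axis) of all tested probes against the distance from the first Ifnar1 probe (x axis, kb). Filled points passed an adjusted p under 0.05, and they are Ifnar1 probe 3, Il10rb at -0.30 and A930006K02Rik at -0.90, which lie close together.

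Receptor genes lie together on chromosome 16, where the 6 probes of Ifnar2, Il10rb, Ifnar1 and Ifngr2 lie within 170 kb, chr16:91394044-91564041 of mm9. Of 31 genes tested within 1 Mb of Ifnar1, 2 others were called and both were lower, beside 3.12% of all genes called in either direction and 1.1% lower. On a scale with the first Ifnar1 probe at 0, they were Il10rb at -78.0 kb and A930006K02Rik at -34.2 kb, which is named by a cDNA clone and fell by 0.90 (SE 0.10, adjusted p = 0.00224). For Irf5, 0 of 24 neighbouring genes were called, and for Ifngr1 0 of 14. Near Irf1 1 of 33 was called, Fnip1 at 0.35, near Irf3 2 of 94, Gys1 at -0.37 and Hsd17b14 at 0.37, near Stat2 3 of 65, Cd63 at 0.53, Myo1a at -0.53 and Ddit3 at 0.33, and near Jak1 1 of 13, Ak4 at 0.87.

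Over the 8 samples, the signals most like the third Ifnar1 probe were those of Ccdc28b (Pearson r = 0.996), Zfp932 (r = 0.996) and Gle1 (r = 0.994). For Irf5 they were Fbxo9 (r = 0.968), 4833422M21Rik (r = 0.968) and Diaph2 (r = 0.957). These r values are a description over 8 samples of 2 groups on shared arrays.

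Promoters were searched because the receptors, factors and targets are linked by STAT and IRF binding motifs. RefSeq promoters on GRCm38.p6, from 250 bases before to 50 after each gene's start, matched all 9 genes with 10 promoters. The GAS motif TTCNNNGAA, which reads the same on both strands, was in 3 of them, beside 8.30% of 32851 promoters. The ISRE motif, GAAA, any 2 bases and GAAA on either strand, was in 1, beside 3.44%, and the motifs do not overlap. Irf1 held the GAS match TTCCCCGAA from position -90 in its promoter at chr11:53769764-53770063. Its other promoter, at chr11:53770223-53770522, held no match. Ifnar2 held TTCCTGGAA from -214, and Ifnar1 held TTCACGGAA from -5, across its start. Stat2 held TTTCAGTTTC from -222. The 250 bases before the Irf1 start with the match, chr11:53769764-53770013, and before that of Stat2, chr10:128270248-128270497, are given with the match in capitals. Both are on the plus strand. Irf5 had neither motif in its window.
Irf1: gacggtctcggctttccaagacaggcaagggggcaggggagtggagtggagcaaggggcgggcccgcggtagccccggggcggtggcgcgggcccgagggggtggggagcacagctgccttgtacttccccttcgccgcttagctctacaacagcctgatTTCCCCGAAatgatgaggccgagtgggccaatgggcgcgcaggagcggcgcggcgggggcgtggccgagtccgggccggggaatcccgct
Stat2: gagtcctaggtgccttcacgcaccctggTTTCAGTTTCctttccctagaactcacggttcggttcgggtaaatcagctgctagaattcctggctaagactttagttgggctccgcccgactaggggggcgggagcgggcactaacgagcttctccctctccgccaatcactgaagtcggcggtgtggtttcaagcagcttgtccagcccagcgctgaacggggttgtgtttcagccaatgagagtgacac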

How the data were processed

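Total RNA of 8 DRG samples was labelled with Cy3 and hybridized to the arrays of 1 Agilent slide and scanned once. Per the file headers, the deposited spot intensity had its background adjusted and was detrended in Agilent Feature Extraction 10.7.3.1. A deposited table of log2 values, quantile normalized by the authors in GeneSpring, was used as an alternative. Each array has 59305 spots besides controls, of which 93 to 221 flagged as outliers were dropped and 0 saturated. Log2 processed signals of a probe's spots were averaged and quantile normalized with limma 3.58.1 in R 4.3.3. Of 55681 probes, 56.5% to 60.8% per array were well above background, and the 29432 that were so on all 8 arrays were tested with limma's linear model and empirical Bayes, adjusted by Benjamini and Hochberg over all of them. The number of arrays limits the precision. In a principal component analysis of the tested probes, wildtype sample 1 stood apart from the other wildtype samples. It was at 32.7 against 14.9 to 15.3 on component 1, and at 31.2 against -27.3 to -9.8 on component 2. That sample is also the only wildtype one in the first row of the slide. Each sample pooled 2 mice, and p-values measure the spread between such samples. The only Gla probe could not be placed inside or outside the disrupted part of the gene, so it does not check the labels.

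The members and gene lists were chosen with earlier results of these data known. Named are all member probes, up to 6 called genes per list (or, with none called, the 2 with the smallest p), called genes within 1 Mb of a member, and the 3 genes most like each called member. Of the probes, 28026 took a gene symbol through RefSeq. A list gene is its brightest tested probe. Alternatives were normexp background correction with an offset of 50, scaling to the 75th percentile and the authors' table. Filter alternatives were probes above background on 4 of 8 arrays or without a filter. Others were the methods' t-test (Welch's), replicate number or slide row as a block, array weights, leaving out each sample, and the study's criteria. Those criteria were applied to the limma p-values and not to those of the t-test.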

Additional observations from a re-analysis of the deposited data

Results flagged for a closer look

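Single values stood far from the other 3 samples of their group in 3 of 66 groups examined, by a gap to the nearest value, divided by the range of the group, above the 95% critical value of Dixon's test, and chance gives about 1 in 20. For Jak1, wildtype sample 2 was low at 14.86, with the others at 14.97 to 14.99 (ratio 0.847). For Ifnlr1, FD sample 2 was high at 8.19, with the others at 7.87 to 7.89 (ratio 0.943). For Ifit1, wildtype sample 3 was high at 10.50, with the others at 9.96 to 10.01 (ratio 0.897).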

How the results depend on the processing

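The third Ifnar1 probe kept its call under all 17 alternatives, from -0.70 to -0.64. Irf5 lost its call at -0.51 without a filter on background (adjusted p = 0.0618), with the methods' t-test (0.0864) and in limma with the replicate block (0.0858) and at -0.49 with the slide row as a block (adjusted p = 0.0584), and ran from -0.56 to -0.44 when single samples were left out. Values that changed sign were small: the second Ifnar1 probe was 0.0079 with normexp and 0.056 with array weights, and ran from -0.087 to 0.036 without single samples, above 0 without FD sample 1 or wildtype sample 1 or 2, Ifnar2 ran from -0.019 (without wildtype sample 1) to 0.11 without single samples, and Ifngr1 was 0.0050 with the slide row as a block.

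Called probes numbered 904, and 556 without a filter, 266 in the t-test, 284 under the replicate block, 2102 with array weights, 1774 at the study's criteria and 414 to 1038 without single samples. The 2 member probes became 1 without a filter, with the t-test and with either block, and 1 to 3 without single samples. The 3 pathway genes became 5 with normexp, 0 with the t-test and with the replicate block, 7 with array weights and 6 at the study's criteria. The 5 type I targets became 3 with the filter on 4 of 8 arrays, 2 without a filter, 0 with the t-test, 2 with the replicate block, 3 with the row block, 14 with array weights, 11 at the study's criteria and 2 to 7 without single samples. The 3 gamma targets became 6 with normexp, 1 with the filter on 4 of 8 arrays, 0 without a filter, with the t-test and with the row block, 1 with the replicate block, 13 with array weights, 12 at the study's criteria and 0 to 5 without single samples. The cause was not tested. Replicate numbers did not pair the samples: same-numbered samples correlated at -0.25 to 0.063 and 1 of 4 FD samples correlated best with its own number. Scaling moved the median of all probes to 0.027 or 0.015 from 0.019.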
